A study of Rattus norvegicus with 6 samples.

Results

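The genes described here encode proteins of the centrosome, of centriole duplication and of microtubule nucleation. Of 42 genes listed by symbol, 35 were found among the 27103 named genes of the array by an exact match of the gene name. *Cep192*, *Cetn2*, *Cep250*, *Tubgcp4*, *Haus2*, *Haus5* and *Haus6* were not matched and are not analysed here. Each gene was read from its brightest probe, by the mean over all 6 arrays. That choice is not neutral to the groups, because a probe can be the brightest through the replicating arrays alone, as for *Nek2*, *Cep76* and *Nin* below.

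Replicating and quiescent β-cells were sorted from 3 islet preparations, each from 4 young adult male Wistar rats. All islets had been cultured overnight with EdU, a thymidine analogue that is built into DNA during S phase, in basal glucose. After dispersion, Newport Green staining and fixation, large granular Newport Green-positive cells were taken as β-cells, EdU-positive ones as replicating and EdU-negative ones as quiescent, so that each preparation gave 1 array of each group. A sample is therefore a pool of sorted cells from several rats, and in such a pool more cells that express a gene cannot be told apart from more RNA per cell.

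The centrosome is built around a pair of centrioles and a surrounding protein matrix, the pericentriolar material, that nucleates microtubules. A cycling cell copies its centrioles during S phase and uses the paired centrosomes as spindle poles in mitosis. In a quiescent cell the older centriole can instead serve as the base of a primary cilium, which β-cells carry. Centriole copying is started by the kinase PLK4 with STIL and SASS6. Microtubules are nucleated by the γ-tubulin ring complex, which the augmin (HAUS) complex brings to the sides of existing spindle microtubules.

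Values are log2 signals after background correction and quantile normalization, and a log2 ratio is always replicating over quiescent. The arrays of the replicating cells resembled each other, with Pearson's r between 0.967 and 0.986 over all probes, which are not independent replicates. The quiescent arrays did not: r lay between 0.654 (arrays 2 and 3) and 0.867 (arrays 1 and 3). Quiescent array 2 stood apart, with 1583 spots marked as outliers against 252 to 299 on the others. Quiescent array 3 was close to the replicating arrays (r between 0.943 and 0.969), and quiescent array 1 less so (0.869 to 0.887). On quiescent arrays 1 and 2, 96.4% and 98.4% of probes were well above background. That share was 85.7% on quiescent array 3 and 80.8% to 87.3% on the replicating arrays. The part of this split in the ratios of the preparations was not tested. Insulin transcripts were bright in both groups, with a mean log2 signal of *Ins1* of 16.84 in replicating and 16.60 in quiescent cells, while of 8 beta cell markers 3 had a ratio above 0 and 1 was called lower (*Mafa*, log2 ratio -1.01). *Pdx1* and *Slc2a2* had ratios of -0.76 and -0.70 and were not called. *Iapp* had the highest ratio of the 8, at 0.906, and was not called either. The others above 0 were *Ins1* and *Ins2*. The summed signal of 10 fibroblast and stellate cell markers was higher on every replicating array (13.79 to 15.34 on the log2 scale) than on the quiescent arrays (12.43 to 12.64), all 10 had a ratio above 0, and 5 passed the thresholds given below. For 5 alpha cell markers the summed signal was 14.42 to 16.45 in replicating and 12.44 to 14.03 in quiescent cells, with 4 of 5 above 0. For 4 immune cell markers it was 11.14 to 11.46 and 10.17 to 10.65, with all 4 above 0. The dimmest of these markers in quiescent cells, *Lum*, had a mean log2 signal of 6.15, and the brightest, *Gcg*, had 12.99. The part of these cells in the results below was not tested.

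Centrosome genes as a group read higher in the replicating β-cells. The study had reported a centrosome category as enriched in replicating cells on these same arrays, so the values here are no independent evidence. Of the 35 genes, 31 had a log2 ratio above 0, with a median of 0.80 and a range from -0.66 for *Cep152* to 3.75 for *Nek2*. The median over all named genes was -0.13. A gene was called in limma when its unadjusted p did not exceed 0.05 and its log2 ratio was 1 or more in size. The study also used these thresholds, but reported more genes past them, and more higher than lower in replicating cells. Here fewer of all named genes were called higher than lower. By this rule 9 of the 35 (25.7%) were called higher and 0 lower. Among all 27103 named genes 4.24% were called higher and 4.69% lower. Of the centrosome genes, 34 were well above background on all 6 arrays. Among the 14632 genes with a full symbol and a signal well above background on every array, 6.93% were called higher and 2.56% lower, and their median log2 ratio was 0.12. In 13 of the 35 genes every replicating array lay above every quiescent array with a value, against 12.8% of those 14632 genes. In 1 (*Cep152*) every replicating array lay below. Among the 13 is *Haus4*, whose outlier value on quiescent array 2 was left out and whose ratio was -0.28 with it kept. With the processed signal scaled to the 75th percentile, 1.53% of all named genes were called higher and 7.27% lower, and 6 centrosome genes were called higher and 0 lower.

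No centrosome gene passed an adjusted p of 0.05, nor did any of the 45598 probes tested (0 by limma after Benjamini-Hochberg correction across probes, 4379 at an unadjusted p under 0.05). The smallest adjusted p among the centrosome genes was 0.112, for *Nek2*, and the next was 0.376, for *Stil*. The calls below are therefore nominal.

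**Figure D1:**
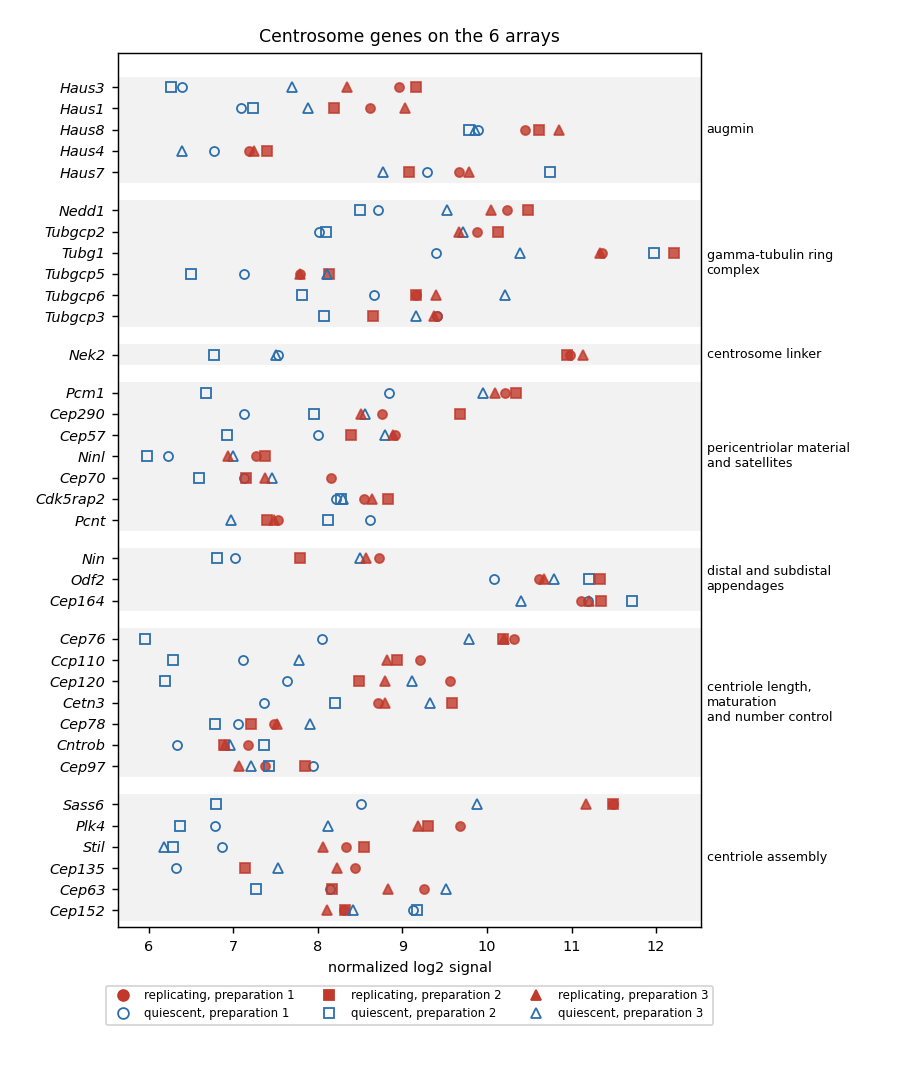
Normalized log2 signal (x axis) of the 35 centrosome genes on the 6 arrays, grouped by role. Filled red symbols are replicating and open blue symbols quiescent β-cells, with 1 symbol shape per islet preparation. The replicating arrays lie close together for most genes, and the quiescent arrays spread more widely in 31 of 35. Over all named genes the median standard deviation is 0.21 for the replicating and 0.66 for the quiescent arrays.

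The size of the difference depended on the islet preparation. The median log2 ratio of the 35 genes was 1.12 in preparation 1, 1.36 in preparation 2 and 0.20 in preparation 3. In preparation 1, 20 of 35 genes had a ratio above 1, in preparation 2, 17 of the 33 with a value, and in preparation 3, 7 of 35. The preparations differed mainly on the quiescent side. In the order of the preparations, the replicating arrays had a median level of the 35 genes of 8.96, 8.83 and 8.81, and the quiescent arrays of 7.94, 7.26 and 8.50. On quiescent array 3, 22 genes had their highest quiescent value. The median standard deviation of a centrosome gene was 0.23 over the replicating and 0.75 over the quiescent arrays. Over all named genes it was 0.21 and 0.66, so the wider quiescent spread was not particular to the centrosome genes. Over the 14632 genes with a full symbol the median ratio in the 3 preparations was 0.20, 0.30 and -0.06.

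**Figure D2:**
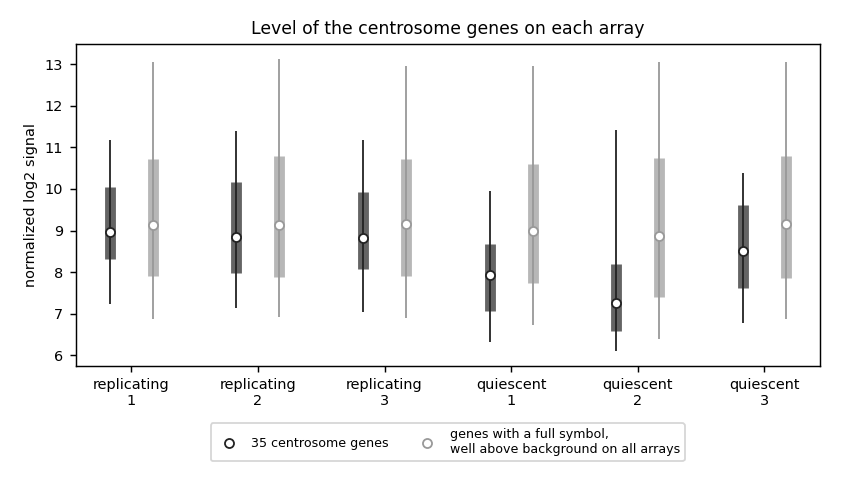
Normalized log2 signal (y axis) of the 35 centrosome genes (dark) and of 14632 genes with a full symbol and a signal well above background on all arrays (grey), on each array. Thin lines span the 5th to 95th percentile, thick lines the quartiles, and circles mark the median. The median of the centrosome genes lies between 8.81 and 8.96 on the replicating arrays and between 7.26 and 8.50 on the quiescent arrays.

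The genes that start centriole copying were among those called. *Plk4*, the kinase that sets off the formation of a new centriole, had a log2 signal of 9.68, 9.31 and 9.18 in replicating cells and of 6.79, 6.37 and 8.12 in quiescent cells, each in the order of preparations 1 to 3. The groups did not overlap, and quiescent array 3 was the nearest to the replicating level. It was 4.92-fold higher, a log2 ratio of 2.30 with a standard error of 0.49, with an unadjusted p of 0.00497 and an adjusted p of 0.475 in limma.

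*Stil*, which binds PLK4 and recruits SASS6 to the new centriole, read 8.33, 8.54 and 8.05 on the replicating and 6.86, 6.28 and 6.18 on the quiescent arrays. On 1 quiescent array its signal was not well above background. Its log2 ratio of 1.87 (standard error 0.33, adjusted p = 0.376 in limma) was of similar size in every preparation, at 1.47, 2.26 and 1.87. *Sass6*, which forms the cartwheel that gives the centriole its symmetry, read 11.49, 11.49 and 11.17 in replicating and 8.51, 6.79 and 9.88 in quiescent cells. The replicating arrays differed by less than the quiescent ones, which ran from 6.79 to 9.88. Its ratio was 2.99 (standard error 0.68, adjusted p = 0.475 in limma), and its dimmer probe gave 1.46 and was called as well.

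The other 3 genes of centriole assembly on the array were not called, which left 3 of 6 called (50%, against 4.24% of all named genes). *Cep152*, the scaffold that brings PLK4 to the parent centriole, had values of 8.30, 8.32 and 8.11 in replicating and 9.13, 9.17 and 8.41 in quiescent cells. It was the only centrosome gene whose ratio was below 0 in all 3 preparations (log2 ratio -0.66, unadjusted p = 0.093 in limma), but its 4 probes disagreed, as described below. *Cep135*, a centriole wall protein, had a ratio of 1.40 (unadjusted p = 0.0576 in limma), fitted without its quiescent value of preparation 2, which was marked as an outlier. With outlier spots kept the ratio was 0.83 (unadjusted p = 0.177 in limma). Its dimmer probe had 1.42 and was called. *Cep63*, a partner of CEP152, had a ratio of 0.45, running from 1.12 in preparation 1 to -0.68 in preparation 3.

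**Figure D3:**
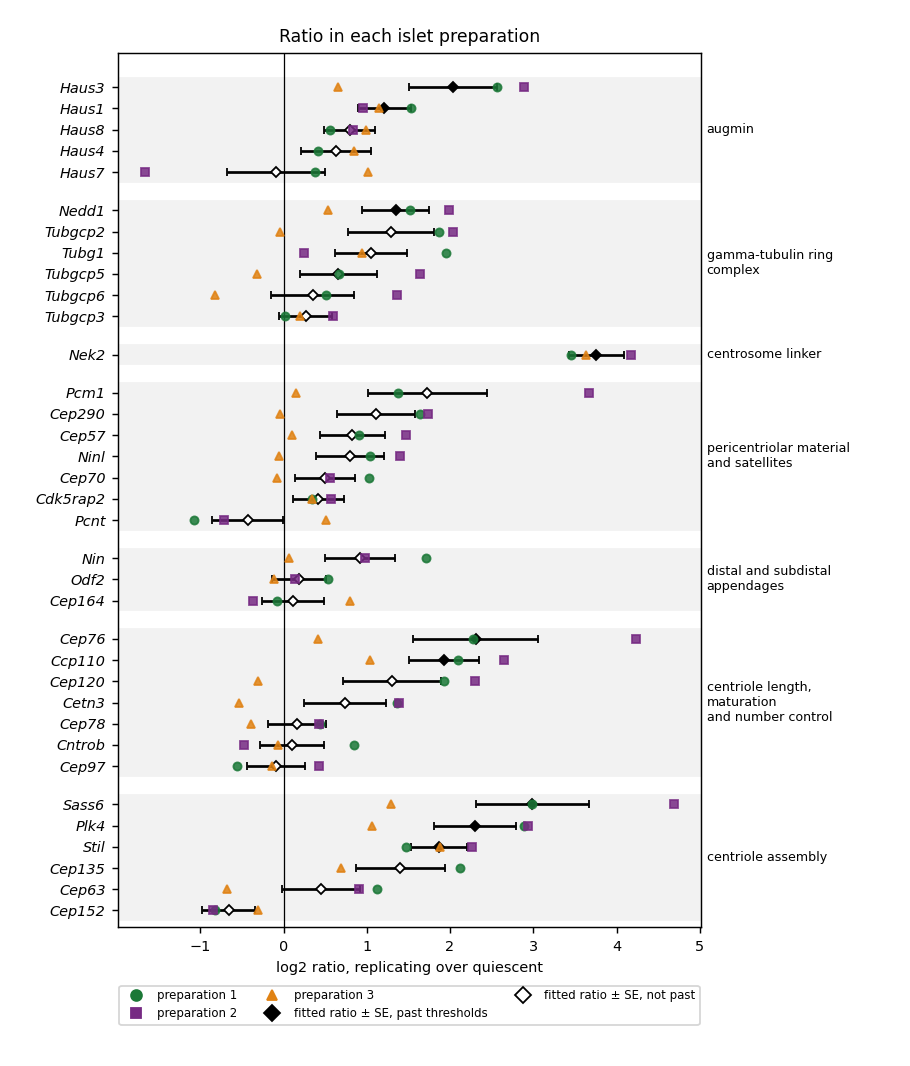
Log2 ratio of replicating over quiescent β-cells (x axis) for each of the 35 centrosome genes, grouped by role. Coloured symbols are the 3 islet preparations, and diamonds are the fitted ratio with its standard error, filled for the 9 genes past the thresholds. Preparation 3 gave the smallest ratio of the 3 for 21 genes.

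*Nek2*, a kinase that releases the linker between centrosomes before mitosis, had the largest ratio of the 35. Its signal was 10.99, 10.95 and 11.14 on the replicating arrays and 7.53, 6.77 and 7.50 on the quiescent arrays. All 3 preparations gave a similar difference (3.45, 4.18 and 3.63). It was 13.5-fold higher, a log2 ratio of 3.75 with a standard error of 0.33, with an unadjusted p of 7.64e-05 in limma. The study had picked *Nek2* out of these same arrays as a leading gene, so its value here is no independent evidence.

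Among genes that set centriole length, maturation or number, 2 of 7 were called (28.6%, against 4.24% of all named genes). *Ccp110*, which caps the centriole end and holds back cilium formation, read 9.21, 8.93 and 8.81 in replicating and 7.11, 6.29 and 7.77 in quiescent cells. All replicating arrays exceeded all quiescent arrays by at least 1 log2 unit, and the ratio was 1.93 (standard error 0.42, unadjusted p = 0.00554 in limma). *Cep97*, which acts with CCP110, had the lowest ratio of the group, with 7.38, 7.84 and 7.07 against 7.94, 7.42 and 7.21. These overlapped, and its ratio was -0.09.

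*Cep76*, which restrains centriole reduplication, read 10.32, 10.19 and 10.20 in replicating and 8.05, 5.95 and 9.79 in quiescent cells, a ratio of 2.31 (standard error 0.75, unadjusted p = 0.0266 in limma). The quiescent arrays ran from 5.95 to 9.79, and preparation 3 gave a ratio of 0.41. Its other probe had -0.38, and the call was lost in 4 of the 13 alternative settings, among them the median over its probes. *Cep120*, needed for centriole elongation, had a ratio of 1.30 and *Cetn3*, a centrin of the centriole lumen, had 0.74, and both were below 0 in preparation 3. *Cep78* and *Cntrob* had ratios of 0.16 and 0.10.

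None of the 3 appendage genes was called. Since 4.24% of all named genes were called higher, 0 of 3 does not set them apart. *Cep164*, a distal appendage protein by which the parent centriole docks to the membrane to form a cilium, read 11.11, 11.35 and 11.21 in replicating and 11.20, 11.71 and 10.40 in quiescent cells. The groups overlapped, with a ratio of 0.12 (standard error 0.37). *Nin*, a subdistal appendage protein that anchors microtubules, read 8.72, 7.78 and 8.57 against 7.02, 6.80 and 8.50, a ratio of 0.92 (unadjusted p = 0.0797 in limma). *Odf2*, an appendage scaffold, had 0.18.

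None of the 7 genes of the pericentriolar material and of the satellites that supply it was called, though 6 had a ratio above 0. With 4.24% of all named genes called higher, 0 of 7 does not set these genes apart. *Pcm1*, the satellite scaffold, read 10.21, 10.34 and 10.10 in replicating and 8.84, 6.67 and 9.95 in quiescent cells. The groups did not overlap, but the difference ran from 3.67 in preparation 2 to 0.15 in preparation 3, and the ratio of 1.73 had unadjusted p = 0.0578 in limma. *Pcnt*, the large scaffold of the pericentriolar material, had the lowest ratio, -0.43, with 7.53, 7.40 and 7.48 against 8.61, 8.12 and 6.97. Its ratio was below 0 in preparations 1 and 2 and above 0 in preparation 3. *Cdk5rap2*, which attaches γ-tubulin complexes to that scaffold, had a small but even ratio of 0.42, between 0.34 and 0.56 in every preparation and with no overlap between groups (unadjusted p = 0.229 in limma). *Cep290*, *Cep57*, *Ninl* and *Cep70* had ratios of 1.11, 0.83, 0.80 and 0.50.

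All 6 genes of the γ-tubulin ring complex had a ratio above 0, and 1 was called (16.7%, against 4.24% of all named genes). *Nedd1*, which targets the complex to centrosomes and spindles, read 10.24, 10.49 and 10.05 in replicating and 8.71, 8.50 and 9.52 in quiescent cells. The groups did not overlap, and the ratio was 1.35 (standard error 0.40, unadjusted p = 0.0196 in limma). *Tubg1*, γ-tubulin itself, had 1.05 (unadjusted p = 0.0587 in limma), between 0.24 in preparation 2 and 1.96 in preparation 1. *Tubgcp3*, a core subunit, had the lowest ratio, 0.27, with 9.41, 8.65 and 9.37 against 9.40, 8.07 and 9.17. *Tubgcp2*, the other core subunit listed, had 1.29 (unadjusted p = 0.0525 in limma), and *Tubgcp5* and *Tubgcp6* had 0.66 and 0.35 and read below 0 in preparation 3.

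Of the 5 augmin genes on the array, 2 were called (40%, against 4.24% of all named genes). *Haus3* read 8.96, 9.16 and 8.35 in replicating and 6.39, 6.26 and 7.69 in quiescent cells, a ratio of 2.04 (standard error 0.53, unadjusted p = 0.0112 in limma). *Haus1* read 8.62, 8.19 and 9.02 against 7.09, 7.23 and 7.88, a ratio of 1.21 (standard error 0.32, unadjusted p = 0.0121 in limma) that was over 0.9 in each preparation. For both genes the lowest replicating array was above the highest quiescent array. *Haus8*, the subunit that binds microtubules, had 0.79 (unadjusted p = 0.0505 in limma), between 0.55 in preparation 1 and 0.99 in preparation 3. *Haus4* had 0.63, fitted without its outlier value on quiescent array 2, and -0.28 with that value kept. *Haus7* was lowest at -0.09, and its values of 9.66, 9.08 and 9.79 against 9.29, 10.75 and 8.77 overlapped, quiescent array 2 being the highest of all 6.

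Augmin was the role group in which preparation 3 had the highest median ratio of the 3 preparations (0.55, 0.90 and 0.99). In preparation 2 that value rests on 4 of its 5 genes. In the 6 genes of centriole assembly, 5 of them in preparation 2, the medians were 1.79, 2.26 and 0.88, and in the γ-tubulin ring complex 1.09, 1.50 and 0.08. In the pericentriolar genes they were 1.03, 1.40 and 0.10. In the genes of length and number control they were 1.36, 1.39 and -0.15. Ratios over 1 in preparation 3 were those of *Nek2* (3.63), *Stil* (1.87), *Sass6* (1.29), *Haus1* (1.14), *Plk4* (1.06), *Ccp110* (1.04) and *Haus7* (1.02), of which all but *Haus7* were called.

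The 9 calls rested unequally on the preparations. *Plk4*, *Stil*, *Sass6*, *Ccp110* and *Nek2* were called in each of the 13 alternative settings run, leaving out any preparation included. *Cep76*, *Haus1*, *Haus3* and *Nedd1* were not called without preparation 1, which left 5 calls (14.3%, against 1.21% of all named genes). All 9 were called without preparation 2, which holds the quiescent array that stood apart, with 11 called in all (31.4%, against 3.32% of all named genes). Without preparation 3, 18 were called (51.4%, against 10.4% of all named genes), those 9 and *Cep120*, *Cep135*, *Cep290*, *Cep57*, *Cetn3*, *Nin*, *Ninl*, *Pcm1* and *Tubgcp2*. The median log2 ratio of the 35 genes was 0.67, 0.70 and 1.19 without preparations 1, 2 and 3.

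The probes of a gene did not always give the same answer. Of the 35 genes, 13 had several probes, and in 6 of these the probes differed in sign. In 7 the ratios lay more than 1 log2 unit apart, and the widest gap was that of *Nek2*, whose other probe had a ratio of 0.13 against 3.75. In quiescent cells that other probe was the brighter, with a mean of 8.39 against 7.27, and in replicating cells the dimmer, with 8.52 against 11.02. The same held for *Cep76*, with 9.23 against 7.93 in quiescent and 8.85 against 10.24 in replicating cells, and by a smaller margin for 1 probe of *Nin*. With the median over its probes *Nek2* had a ratio of 1.94 and was still called, and *Cep76* was not. The probes of *Odf2* ran from -0.85 to 1.46. For *Cep152* the ratios were -0.66 and -0.22 for 2 of the probes and 1.24 and 0.93 for the others, and the probe with 1.24 was called. The probes with -0.22 and 0.93 carry RefSeq accessions of predicted non-coding transcripts. Of the called genes, 6 had 1 probe, and of the 3 with several only *Sass6* was called by each of them.

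**Figure D4:**
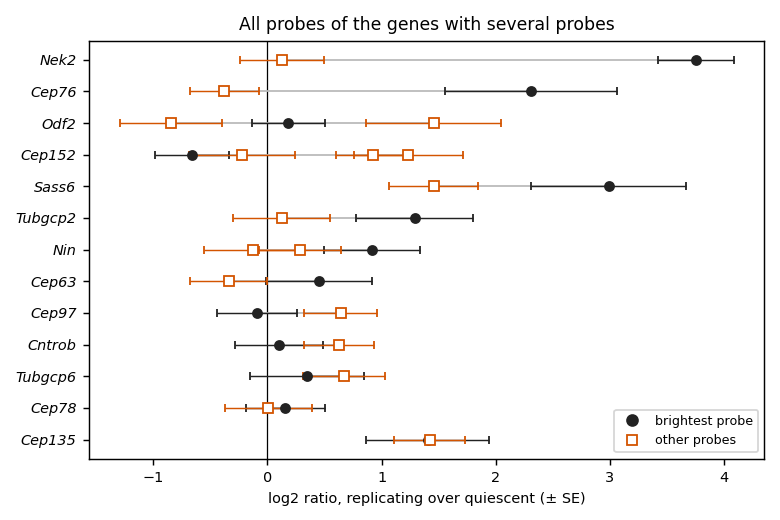
Log2 ratio of replicating over quiescent β-cells, with its standard error (x axis), for every probe of the 13 centrosome genes with several probes. Filled circles are the brightest probe of a gene, used in the text, and open squares the other probes. The probes of *Nek2* lie at 3.75 and 0.13, and those of *Cep152* on both sides of 0.

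The probes of *Nek2* and the brightest and the called probe of *Cep152* are identified here by the first 30 of their 60 bases, since *Nek2* had the widest gap between probes, and *Cep152* was the gene below 0 in all preparations that had another probe called higher. Positions are those of the array files on the rat build rn4. The files do not say in which part of the gene a probe lies, and no base is marked by capitals.
Nek2, ratio 3.75, chr13:107908691-107908750, plus strand: ggtggttatcccaccttttctttctttctc
Nek2, ratio 0.13, chr13:107907177-107907236, plus strand: ctgtctgatattgagaagaactaccagcta
Cep152, ratio -0.66, chr3:112855763-112855822, minus strand: acctcaattatgaaaatgccaccataagat
Cep152, ratio 1.24, chr3:112861884-112861943, minus strand: gtctcactggagacgcctttgtaattttga
Of the 60 bases, 22 were G or C in the first and 29 in the second *Nek2* probe, and 27 and 21 in the *Cep152* probes. In both pairs the probe with the higher ratio held fewer, and a part of base content in the ratios was not tested.

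Many genes expressed late in the cell cycle carry a CCAAT box and a CHR element near their start, and genes of S phase often carry E2F sites. The promoter windows of the centrosome genes were searched for these letters, taking the 250 bases before each RefSeq start on the build GRCr8. Windows were found for 33 of the 35 genes, including all 9 that were called. The motifs were CCAAT, the CHR words TTTGAA and TTCGAA, and the E2F words TTTCCCGC, TTTGGCGC, TTTCGCGC and TTTGCCGC, read on both strands, and no word contains another. A gene with several windows was counted if any of them held the motif, while the share over all windows counts each window singly. A CCAAT box was found in 4 of the 9 called genes, in 12 of the 24 others and in 34.0% of all 33469 windows. A CHR word was found in 1 called gene (*Cep76*), in 5 of the 24 others and in 17.4% of all windows. An E2F word was found in 1 called gene (*Haus3*), in 1 of the others and in 1.73% of all windows. A missing match says only that these letters are not in this window.

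The windows of the 3 called genes with the smallest p are shown, with motif letters in capitals, 5′ to 3′ on the strand of the gene and ending at the base before its start.
Nek2, GRCr8 chr13:105936559-105936808, plus strand: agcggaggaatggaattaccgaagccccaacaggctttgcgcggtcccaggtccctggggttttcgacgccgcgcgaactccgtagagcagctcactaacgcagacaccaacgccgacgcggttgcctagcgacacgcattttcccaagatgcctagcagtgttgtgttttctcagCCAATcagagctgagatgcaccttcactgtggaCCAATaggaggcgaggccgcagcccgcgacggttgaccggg
Stil, GRCr8 chr5:133757381-133757630, plus strand: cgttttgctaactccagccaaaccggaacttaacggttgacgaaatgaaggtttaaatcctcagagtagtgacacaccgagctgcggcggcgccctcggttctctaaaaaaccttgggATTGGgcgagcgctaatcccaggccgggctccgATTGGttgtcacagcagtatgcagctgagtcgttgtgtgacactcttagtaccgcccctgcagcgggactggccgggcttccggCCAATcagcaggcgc
Plk4, GRCr8 chr2:125730230-125730479, plus strand: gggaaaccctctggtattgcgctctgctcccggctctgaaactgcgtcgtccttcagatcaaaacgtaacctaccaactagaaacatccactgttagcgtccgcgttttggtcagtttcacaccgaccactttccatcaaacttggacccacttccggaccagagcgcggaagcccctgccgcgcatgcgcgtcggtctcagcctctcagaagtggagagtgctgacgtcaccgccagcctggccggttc
*Nek2* had 2 CCAAT boxes, beginning 74 and 41 bases before the start, *Stil* had 3 in either direction, and the *Plk4* window held none of the motifs.

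The other genes of the pathway come from a separate list of centriole and centrosome genes. Of 43 listed, 40 were on the array, with a median log2 ratio of 0.18 and 25 above 0. In limma 5 were called higher (12.5%, against 4.24% of all named genes) and 1 lower (2.5%, against 4.69%). *Cep85*, *Cep57l1*, *Cep72*, *Cep89* and *Cep295* had ratios of 1.89, 2.10, 1.37, 1.33 and 1.86, each above 0 in all 3 preparations. On 2 quiescent arrays the signal of *Cep72* was not well above background, so its ratio is set against a signal near background. CEP85 holds back NEK2, CEP72 belongs to the satellites, CEP89 to the distal appendages, and CEP295 is needed to turn new centrioles into centrosomes. *Sclt1*, a distal appendage gene, was the 1 called lower, with a ratio of -1.81. The sign of this list's median was not stable. It was -0.10 with the processed signal and -0.11 with normexp values when arrays were scaled to their 75th percentile. In those settings the median of all named genes was lower still, at -0.76 and -0.44, against -0.13 in the main fit.

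Genes of transport in the cilium, which the older centriole can carry, had a median of 0.36. Of 27 listed, 26 were on the array and 21 had a ratio above 0. In limma 3 were called higher (11.5%, against 4.24% of all named genes) and 1 lower (3.85%, against 4.69%). Those higher were *Wdr19* at 1.76, *Ift46* at 1.58 and *Ift27* at 1.02, all subunits of the intraflagellar transport machinery. *Ift88*, another subunit, was lower at -1.43, read from a probe with the accession of a predicted non-coding transcript. Without preparation 1 or without preparation 2, 0 were called in either direction. Of all named genes, 1.21% were called higher and 0.151% lower without preparation 1, and 3.32% and 1.98% without preparation 2. With all preparations these shares were 4.24% and 4.69%. The difference between these lists and the 35 centrosome genes was not tested.

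**Figure D5:**
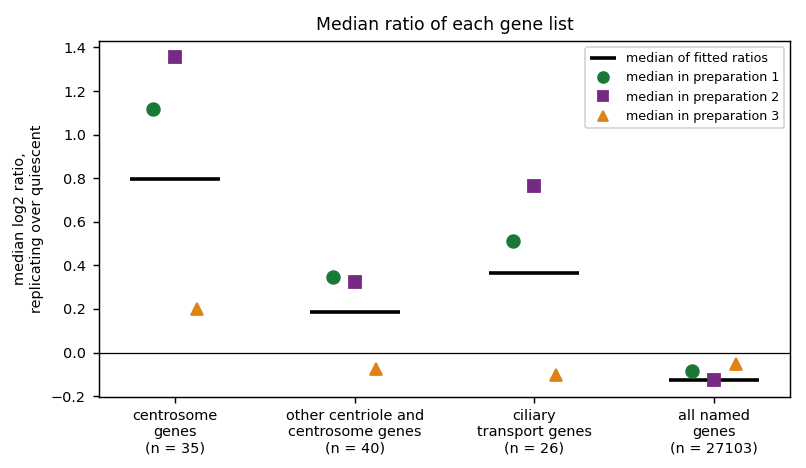
Median log2 ratio of replicating over quiescent β-cells (y axis) of the 35 centrosome genes, 40 other centriole and centrosome genes, 26 ciliary transport genes and all 27103 named genes. Horizontal lines are the median of the fitted ratios and symbols the median in each islet preparation. The centrosome genes have the highest median of the 4 lists in each preparation, and in preparation 3 it is 0.20.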

How the data were processed

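The authors amplified RNA of the sorted cells to cDNA, labelled it with Cy3 and hybridized it to 1-colour Agilent arrays on 1 slide. The deposited intensity values were read by Feature Extraction 10.7.3.1 and not normalized between arrays. The deposited log2 values, used here, are after normexp and quantile normalization by the authors. They differed from a recalculation with an offset of 50 by at most 0.116. Control spots were left out, outlier-marked spots were treated as missing, and spots of a probe were averaged (45598 probes).

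limma 3.58.1 in R 4.3.3 was fitted to all probes with a block for the islet preparation, following the paired test of the study. Files were read with the data.table package (version 1.17.8). The fit was tested on simulated data with equal spread in both groups. The wider spread of the quiescent arrays was therefore not covered by that test. The samples were paired by the replicate number in their titles, taken as the islet preparation of the study's paired test. Within a pair the 2 arrays' departures from their group means correlated at r of 0.0561, 0.242 and 0.258. All p-values are two-sided. The number of arrays limits the precision. No spot was saturated.

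Genes were named from the array files, 1 probe a gene (the highest mean over the 6 arrays). Values on every array are given for called genes and for the highest and lowest of each role group. Other marker lists computed were delta, PP, endothelial, acinar and duct cells. Delta (2 of 2), PP (1 of 1), endothelial (3 of 4), acinar (3 of 4) and duct cell markers (1 of 4) had a ratio above 0. Genes and lists were chosen with earlier results of these data known. Promoter sequences are from RefSeq, build GRCr8. Alternatives were other background corrections, scalings, filters and fits, and each preparation left out. No slide block could be fitted.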

Additional observations from a re-analysis of the deposited data

How the results depend on the processing

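The median log2 ratio of the 35 centrosome genes stayed above 0 in all 13 alternatives, between 0.425 and 1.19, and 0 genes were called lower in any of them. Scaling to the 75th percentile shifted the median of all named genes from -0.13 to -0.76 with the processed signal and to -0.44 with normexp values. Relative to all genes, the centrosome median was 0.92, and 0.77 to 1.33 over the alternatives. Without the replicate block (the preparation), 10 centrosome genes were called higher, and 99 probes passed the adjusted p in place of 0. That number was also moved by 75th percentile scaling of normexp values (719 probes), cyclic loess (204) and a variance trend (61), and lay between 0 and 84 with a preparation left out. At the unadjusted p and fold, 3928 probes were called, 7458 with 75th percentile scaling of normexp values, and between 581 and 10740 with a preparation left out. The centrosome genes called higher numbered 5 to 18 with a preparation left out (1.21% to 10.4% of all named genes), and 6 to 13 under the other alternatives (1.53% to 5.19%). The cause of these changes was not tested.

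Among the other centriole and centrosome genes, 2 to 7 were called higher and 0 to 4 lower with a preparation left out. In those settings 1.21% to 10.4% of all named genes were called higher and 0.151% to 14.4% lower. Under the other alternatives 1.53% to 5.19% of all named genes were called higher and 2.16% to 14.4% lower, the highest share lower being with 75th percentile scaling of normexp values. Called lower were 2 with 75th percentile scaling of normexp values and 0 with the median over probes. The median reversed to -0.10 with the processed signal and to -0.11 with 75th percentile scaling of normexp values. The median of all named genes was lower in both, at -0.76 and -0.44. Among ciliary transport genes, 0 were called higher with the processed signal, where the median was -0.0157, and 0 to 4 with a preparation left out. Called lower were 2 with a normexp offset of 0 or the background filter, 3 with 75th percentile scaling, cyclic loess or a variance trend, 0 with the processed signal, without the block or with the median over probes, and 0 to 4 with a preparation left out.

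Of 455 ratios of single centrosome genes under an alternative, 25 reversed, all for genes not called except *Cep76*. *Cep76* reversed to -0.41 with a normexp offset of 0 and to -0.81 with the processed signal, where its other probe was the brightest. With the processed signal *Cep63* was at -0.17, *Cep70* at -0.15, *Cep78* at -0.83, *Cntrob* at -0.72, *Haus7* at 0.00701, *Tubgcp3* at -0.14 and *Tubgcp6* at -0.19, and the genes of length and number control had a median of -0.72. With 75th percentile scaling of normexp values *Cep63* was at -0.0872, *Cep78* at -0.39, *Cntrob* at -0.39, *Tubgcp3* at -0.0793 and *Tubgcp6* at -0.18. Cyclic loess gave *Haus7* 0.0428 and *Tubgcp6* -0.0618, and outlier spots kept gave *Haus4* -0.28. The median over probes gave *Cep152* 0.45, *Cep97* 0.27 and *Odf2* -0.18. With a preparation left out, *Cep164* ranged from -0.23 to 0.36, *Cep97* from -0.35 to 0.14, *Cntrob* from -0.27 to 0.39, *Haus7* from -0.65 to 0.70 and *Tubgcp6* from -0.16 to 0.93. *Haus1* and *Nedd1* were not called under either 75th percentile scaling. A slide block was not run, since all arrays lay on 1 slide.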
